A study of Mus musculus with 21 samples.

Results

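The mitotic spindle and cytokinesis genes are 49 genes whose products act when a cell enters mitosis, aligns and separates its chromosomes and divides its cytoplasm. They were taken by gene name from a list of mitotic genes. All 49 were found, each with 1 row, among the 42760 genes of the tables for the Peril and Fendrr strains and the 40770 genes of the table for the linc-Brn1b strain.

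The genes are described in RNA-seq of 3 mouse strains, in each of which a long intergenic noncoding RNA gene was replaced by a lacZ cassette. Homozygous knockouts (-/-) were set against wild types (+/+) in E18.5 whole brain for Peril (labelled linc-Sox2), in E14.5 lung for Fendrr (labelled linc-Foxf1a), and in E13.5 whole telencephalon, E15.5 whole telencephalon and P7 whole brain for linc-Brn1b. Each of the 10 groups had 2 libraries by the labels, except the E15.5 linc-Brn1b knockout with 3, for which the study's text gives 2. All strains came from hybrid 129S6S v/Ev and C57BL/6N embryonic stem cells and were crossed to C57BL/6J, so the animals have a mixed background and the knockouts carry the reporter as well as the deletion.

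Expression is given as FPKM, the fragments of a gene scaled to transcript length and to the number of mapped fragments, with 1 value per group. The spread between animals and the depth of the libraries are therefore unknown, and no difference below carries a test, an SD or an interval. A difference is the log2 ratio of the 2 group values after 0.1 FPKM was added to each, knockout minus wild type or later minus earlier age. It was read for genes with a mean of at least 1 FPKM over both groups, and a gene is called past the fold where the higher of its values is at least 25% above the lower on that scale. The levels of Y-linked genes also separated the genotypes in all 5 comparisons, so genotype and sex cannot be told apart in any of them. Beside the first count of the 49 genes at each limit in a comparison stands the share of all genes that pass the same limit there. Apart from a fold of 2 at P7, counts under alternative settings, also those centred by transcript length, stand without such a share.

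Entry into mitosis is driven by the kinase CDK1 with cyclins A and B, helped by the Polo-like and Aurora kinases. Kinesins and microtubule-associated proteins then build the spindle, kinetochores attach chromosomes to it, and the spindle checkpoint holds back the anaphase-promoting complex until every chromosome is attached. Most of these genes are transcribed mainly in G2 and M phase, so in whole tissue their summed RNA tracks the cycling cells. In the embryonic forebrain those are the radial glia and intermediate progenitors lining the ventricles, and in the early postnatal mouse brain they include granule cell precursors of the cerebellum and glial progenitors. In bulk tissue, fewer cycling cells and less RNA per cycling cell cannot be told apart.

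The genes were well expressed in all 3 strains. The median of the 49 was 38.9 FPKM in E13.5 wild-type telencephalon, 19.6 FPKM at E15.5 and 3.83 FPKM in P7 brain. It was 5.31 FPKM in wild-type E18.5 brain of the Peril strain and 51.8 FPKM in wild-type E14.5 lung of the Fendrr strain, whose tables were scaled separately. All 49 reached 1 FPKM in 9 of the groups, and 44 did in the P7 knockout.

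Top2a, the topoisomerase that untangles sister chromatids, had the highest level in 9 of the 10 groups. It measured 189 FPKM in E13.5 wild-type telencephalon and 200.3 FPKM in wild-type lung. In the P7 knockout Mad2l1, the checkpoint protein MAD2, ranked first at 7.83 FPKM and Top2a measured 5.64 FPKM. Next to Top2a, Ube2c, the ubiquitin-conjugating enzyme of the anaphase-promoting complex, stood at 122 FPKM at E13.5 and Mki67, the Ki-67 protein that coats mitotic chromosomes, at 104 FPKM. The lowest in E13.5 wild type were Anln, the cytokinetic ring scaffold anillin, at 13.1 FPKM and the kinesin Kif20b at 14.6 FPKM. In the lung, Aspm, a spindle pole protein, was lowest at 14.8 FPKM. The order of the levels was much alike between tissues, with a Spearman correlation over the 49 genes of 0.98 between E13.5 and E15.5 wild-type telencephalon, 0.88 between E13.5 telencephalon and lung, and 0.85 between E13.5 telencephalon and P7 brain. These correlations describe 49 genes in pooled values and carry no test.

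**Figure D1:**
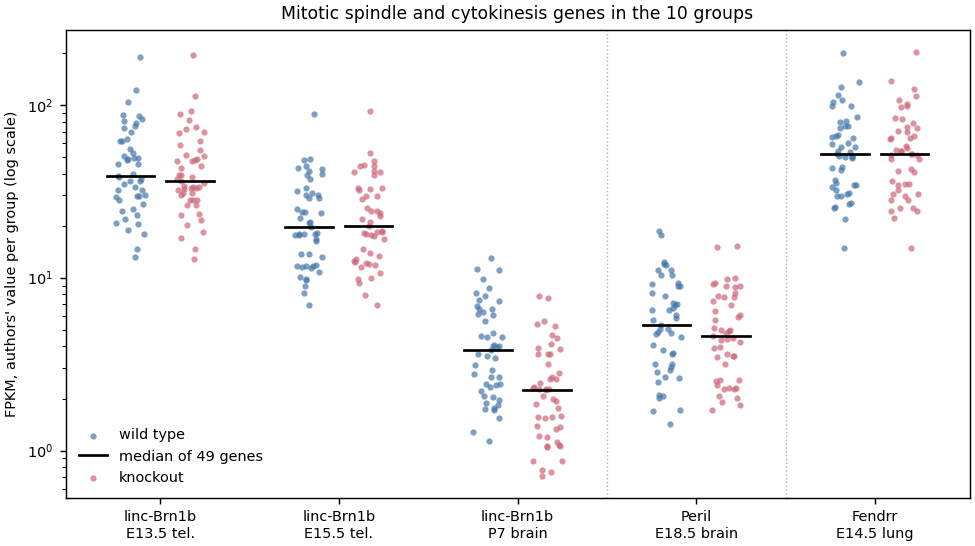
FPKM (log scale) of the 49 genes in the wild-type (blue) and knockout (red) groups of each strain, 1 point per gene and a black bar at the median. In the linc-Brn1b strain the medians go from 38.9 FPKM at E13.5 to 19.6 at E15.5 and 3.83 at P7 in wild type, and the P7 knockout median is 2.23 FPKM. Dotted lines separate tables that were scaled separately.

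For 13 of the 49 genes, another row of the table with at least 1 FPKM overlaps the gene, so that fragments may have been split and the values are less certain. Cenpa, the centromeric histone H3 variant, shares its locus with a row named Cenp-a that had 28.9 FPKM in E13.5 wild type, above the 20.7 FPKM of Cenpa itself. Smc4, a core subunit of condensin, shares its locus with a row SMC4 at only 2.42 FPKM against 82.9 FPKM for Smc4. The other 11 are Ccna2, Ccnb1, Plk1, Cdc20, Ndc80, Kif20a, Nusap1, Racgap1, Smc2, Ncapg and Ncaph.

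The promoters of these genes are known for a short element, the cell cycle genes homology region or CHR, which is bound by MuvB complexes and restrains or drives transcription with the cell cycle, often beside CCAAT boxes bound by NF-Y. RefSeq promoter sequences on GRCm38.p6, from 250 bases before to 50 bases after the annotated start, were at hand for 42 of the 49 genes. A CHR, searched as TTTGAA or TTCGAA on both strands, was present in 33 of the 42 promoters (78.6%) and in 20.2% of the 17491 genes of the table. Within 50 bases of the start, a window chosen after the matches were seen, 30 of 42 (71.4%) held a CHR against 5.08% of all genes. A CCAAT box, searched as CCAAT on both strands, was present in 30 of 42 (71.4%) against 42.3% of all genes, and both motifs in 28 of 42 (66.7%) against 8.22%. A match is a description of the letters and does not show that a factor binds there.

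The 110 bases before the start are shown for 7 of the genes described below, to set the arrangements of the motifs side by side, with matches in capitals on the coding strand (TTTGAA or its reverse complement TTCAAA for the CHR, CCAAT or ATTGG for the CCAAT box).
Cdk1, chr10:69352913-69353022, minus strand: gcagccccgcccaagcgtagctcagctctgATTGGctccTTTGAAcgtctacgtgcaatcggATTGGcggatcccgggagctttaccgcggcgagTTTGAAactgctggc
Cdc20, chr4:118437344-118437453, minus strand: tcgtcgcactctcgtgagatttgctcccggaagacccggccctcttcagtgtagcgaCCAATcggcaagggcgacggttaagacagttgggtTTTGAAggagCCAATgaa
Top2a, chr11:99024190-99024299, minus strand: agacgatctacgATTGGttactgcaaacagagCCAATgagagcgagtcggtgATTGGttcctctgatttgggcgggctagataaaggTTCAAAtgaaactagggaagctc
Ube2c, chr2:164769819-164769928, plus strand: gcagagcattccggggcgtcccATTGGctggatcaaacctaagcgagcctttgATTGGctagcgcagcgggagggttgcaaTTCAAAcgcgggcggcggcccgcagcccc
Kif11, chr19:37376272-37376381, plus strand: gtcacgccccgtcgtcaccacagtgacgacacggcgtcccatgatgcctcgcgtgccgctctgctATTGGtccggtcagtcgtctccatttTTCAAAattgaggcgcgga
Mki67, chr7:135716380-135716489, minus strand: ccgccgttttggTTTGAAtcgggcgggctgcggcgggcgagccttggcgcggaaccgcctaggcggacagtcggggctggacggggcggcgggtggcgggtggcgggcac
Ccnb1, chr13:100786487-100786596, minus strand: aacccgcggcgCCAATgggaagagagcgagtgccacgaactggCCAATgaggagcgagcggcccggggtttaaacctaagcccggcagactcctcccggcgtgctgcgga
In Cdk1, Cdc20, Top2a, Ube2c and Kif11 a CHR lies close to the start, in Mki67 it lies farther upstream, and Ccnb1, with CCAAT boxes, held no CHR of these letters in the window.

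In other genes the CHR follows the annotated start, and 30 bases around it are shown for 7 of them, with the same capitals. The 30 bases from the annotated start are held by a coding transcript of the same gene in GENCODE for 33 of the 42 genes. For Aurka, Plk1 and Aspm, and for Kif11 shown above, they are held by none, so the position of their CHR relative to the start is less certain.
Ccnb2, chr9:70421533-70421562, minus strand: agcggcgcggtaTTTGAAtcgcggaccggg
Aurka, chr2:172370521-172370550, minus strand: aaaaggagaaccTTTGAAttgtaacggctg
Plk1, chr7:122159453-122159482, plus strand: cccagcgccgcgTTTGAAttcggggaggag
Cenpa, chr5:30666890-30666919, plus strand: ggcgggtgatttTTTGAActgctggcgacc
Kif23, chr9:61946780-61946809, minus strand: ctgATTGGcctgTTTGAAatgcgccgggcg
Racgap1, chr15:99651634-99651663, minus strand: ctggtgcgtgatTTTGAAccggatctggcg
Aspm, chr1:139454767-139454796, plus strand: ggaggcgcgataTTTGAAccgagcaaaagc
In Kif23 an inverted CCAAT box stands just before the CHR.

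With age, all 49 genes were lower in wild type at each step, where 48.8% of all genes were lower from E13.5 to E15.5 and 54.7% from E15.5 to P7. From E13.5 to E15.5 telencephalon 49 of 49 were lower past the fold, where 20.7% of all genes were, with a median difference of -1.03 against 0.01 for all genes. The E15.5 level was 48.9% of the E13.5 level at the median of the genes, from 38.05% for Cenpf, a kinetochore protein, to 60.7% for Kif23, a kinesin of the central spindle. Next to Cenpf came the spindle kinesin Kif15, at 29.6 and 11.6 FPKM, and Cenpe, the kinetochore kinesin, at 29.9 and 11.9 FPKM. Next to Kif23 came Pbk, a mitotic kinase, at 61.9 and 37.4 FPKM, and Ckap2, a spindle protein, at 29.9 and 17.99 FPKM. Cdk1 measured 38.9 FPKM at E13.5, 20.7 FPKM at E15.5 and 4.77 FPKM at P7. Plk1, the Polo-like kinase of mitotic entry, measured 45.2, 18.1 and 2.39 FPKM at the same ages. Every gene thus kept its direction, and the roles differed little, with medians from -0.91 for the cytokinesis genes to -1.24 for Cdc20, Cdca3 and Ube2c.

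From E15.5 telencephalon to P7 whole brain, 49 of 49 were again lower past the fold, where 41.3% of all genes were, with a median of -2.45 against -0.11 for all genes. Age and the dissected tissue cannot be told apart in this step. Kif2c, a kinesin that takes apart microtubule ends, was lowest at -3.19, going from 18.005 to 1.88 FPKM, and Aspm and Kif23 followed at -3.005 and -2.97. Mad2l1 differed least at -1.38, from 29.0 to 11.1 FPKM, followed by Plk4, the kinase of centriole duplication, at -1.45 and the condensin subunit Smc2 at -1.55. At P7 the wild-type level was 8.71% of the E13.5 level at the median, from 5.29% for Plk1 to 21.8% for Mad2l1.

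Other genes of the cell cycle, also listed by name, moved the same way by less. Of 69 other mitosis genes that passed the filter, 69 were lower and 65 past the fold from E13.5 to E15.5 in wild type, with a median of -0.87. Of 45 S-phase genes, 45 were lower and 43 past the fold, with a median of -0.97. Of 23 subunits of the anaphase-promoting complex and cohesin, which are also needed outside mitosis, 9 were lower past the fold, with a median of -0.25. The markers of postmitotic neurons were higher in 9 of 9 cases, where 51.2% of all genes were higher, with a median of 0.67, and those of radial glia lower in 7 of 9, with a median of -0.96. The part of these cell types in the change was not tested.

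In the linc-Brn1b knockout, 47 of 49 genes were lower from E13.5 to E15.5, where 53.2% of all genes were, and 45 were lower past the fold, where 24.4% of all genes were, with a median of -0.96. Kif15, Cenpf and Mki67 were lowest, at -1.43, -1.396 and -1.24, and Birc5 differed least of the genes that were lower, at -0.25. The knockout differences of this step followed the length of the longest coding transcript, with a Spearman correlation of -0.78 over the 49 genes. Over all genes with a length it was -0.34, and in the wild-type step the correlations were -0.28 and 0.01. These correlations carry no test. Pbk was 38.4 FPKM at E13.5 and 39.1 FPKM at E15.5, and Cenpa was 12.8 and 12.9 FPKM. In wild type Pbk had measured 61.9 and 37.4 FPKM and Cenpa 20.7 and 11.4 FPKM, so the genotypes differ mainly in the E13.5 value. From E15.5 to P7 the knockout was lower past the fold in 49 of 49 genes, where 41.1% of all genes were, with a median of -3.35. Top2a was lowest at -4.01, from 92.6 to 5.64 FPKM, followed by Ccnb1 at -3.998 and Kif2c at -3.98. Plk4 differed least at -1.87, followed by Mad2l1 at -1.91 and Anln at -2.07. The P7 level was 4.89% of the E13.5 level at the median in the knockout, from 2.82% for Mki67 to 18.2% for Mad2l1.

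**Figure D2:**
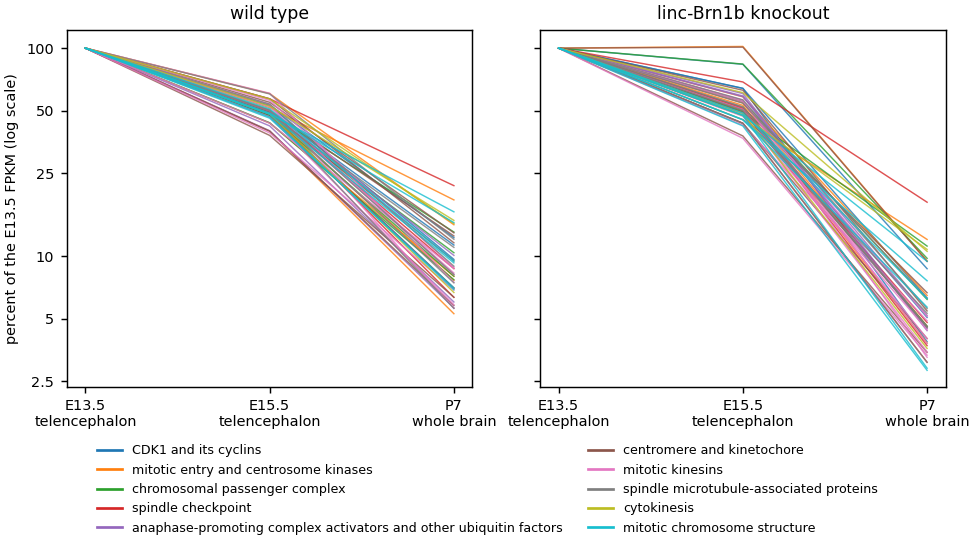
Percent of the E13.5 FPKM (log scale) at E13.5, E15.5 and P7 for each of the 49 genes, wild type on the left and linc-Brn1b knockout on the right, 1 line per gene coloured by role. All wild-type lines go down at both steps, to a median of 8.71% at P7, while in the knockout the lines of Pbk and Cenpa are level from E13.5 to E15.5 and the median at P7 is 4.89%.

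The largest difference between genotypes was in the P7 brain of the linc-Brn1b strain. Of the 48 genes that passed the filter, 48 were lower in the knockout, where 47.8% of all genes were, and 46 were lower past the fold, where 11.3% of all genes were. The median difference was -0.79 against 0.01 for all genes, and the knockout level was 56.7% of wild type at the median of the 49 genes. Aspm, which did not pass, measured 1.14 FPKM in wild type against 0.708 FPKM in knockout. The summed level of the 49 genes was 223 FPKM in wild type against 125 FPKM in knockout. Of all genes, 1.04% were lower by at least 2-fold, and 11 of the 48 were.

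CDK1 and its cyclins were lower past the fold in 4 of 4 cases at P7, with a median of -1.10. Cdk1 measured 4.77 FPKM in wild type against 2.28 FPKM in knockout. Ccna2, cyclin A2, measured 9.81 and 4.14 FPKM, Ccnb1, cyclin B1, 6.09 and 2.66 FPKM, and Ccnb2, cyclin B2, 3.83 and 2.07 FPKM. No other role had a lower median.

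Of the kinases of mitotic entry and the centrosome, 5 of 5 were lower past the fold. Pbk had the lowest difference of all the genes at -1.24, with 8.76 FPKM in wild type against 3.64 FPKM in knockout. Melk, a kinase high in progenitors, measured 1.84 and 0.770 FPKM. Plk1 measured 2.39 and 1.56 FPKM, Aurka, the centrosomal Aurora kinase, 2.77 and 2.00 FPKM, and Plk4 3.51 and 2.59 FPKM. Plk4 thus had a difference of -0.42, among the smallest.

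The chromosomal passenger complex, which corrects wrong attachments and later marks the cleavage site, was not uniform. Its kinase Aurkb measured 2.93 FPKM in wild type against 1.53 FPKM in knockout, Birc5, survivin, 6.58 and 3.85 FPKM, and Cdca8, borealin, 5.59 and 3.64 FPKM. Its scaffold Incenp measured 6.34 and 5.41 FPKM, a difference of -0.23 that was the smallest of the genes that passed and not past the fold. The spindle checkpoint genes were lower past the fold in 4 of 4 cases, from -0.93 for the kinase Bub1, at 1.75 and 0.872 FPKM, to -0.50 for Mad2l1, at 11.1 and 7.83 FPKM. Between them lay the checkpoint kinases Bub1b, at 3.11 and 1.76 FPKM, and Ttk, at 1.55 and 0.876 FPKM.

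Cdc20, the activator that turns on the anaphase-promoting complex, measured 4.52 FPKM in wild type against 2.46 FPKM in knockout at P7, and Ube2c 6.86 and 3.90 FPKM. Cdca3, a ubiquitin ligase factor of mitotic entry, measured 8.15 and 3.62 FPKM. The centromere and kinetochore genes were lower past the fold in 6 of 6 cases, led by Spc25 of the NDC80 complex at 6.13 and 2.59 FPKM and Cenpa at 2.68 and 1.20 FPKM. The row Cenp-a on the same locus measured 2.10 and 1.29 FPKM, also lower in the knockout. Ndc80, which binds the microtubule, measured 2.08 and 1.07 FPKM, its partner Nuf2 4.04 and 2.23 FPKM, and Cenpe, the kinetochore kinesin, 1.73 and 1.13 FPKM.

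The 8 mitotic kinesins were all lower past the fold at P7, from -1.18 for Kif11, which pushes the spindle poles apart, at 4.52 and 1.94 FPKM, to -0.60 for Kif23 at 2.42 and 1.57 FPKM. Kif15 measured 2.03 and 1.07 FPKM, and the chromosome-bound kinesins Kif22 and Kif4 measured 3.99 and 2.27 FPKM and 2.34 and 1.37 FPKM. Of the spindle microtubule-associated proteins, 5 of 5 that passed were lower past the fold, among them Tpx2, which activates Aurora A, at 4.59 and 2.80 FPKM and Prc1, which bundles the central spindle, at 6.55 and 4.68 FPKM. Ckap2 measured 3.598 and 1.86 FPKM and Hmmr, a spindle assembly protein, 2.68 and 1.39 FPKM. Of the cytokinesis genes, Ect2, which activates RhoA at the cleavage site, measured 2.43 and 1.34 FPKM and Racgap1, a subunit of centralspindlin, 11.2 and 7.67 FPKM. Anln measured 1.95 and 1.58 FPKM, a difference of -0.29 that, like that of Incenp, was not past the fold. Of the chromosome structure genes, Top2a measured 13.1 and 5.64 FPKM and Mki67 7.33 and 3.18 FPKM, and 3 of the 4 condensin subunits lay between -0.58 and -0.71.

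**Figure D3:**
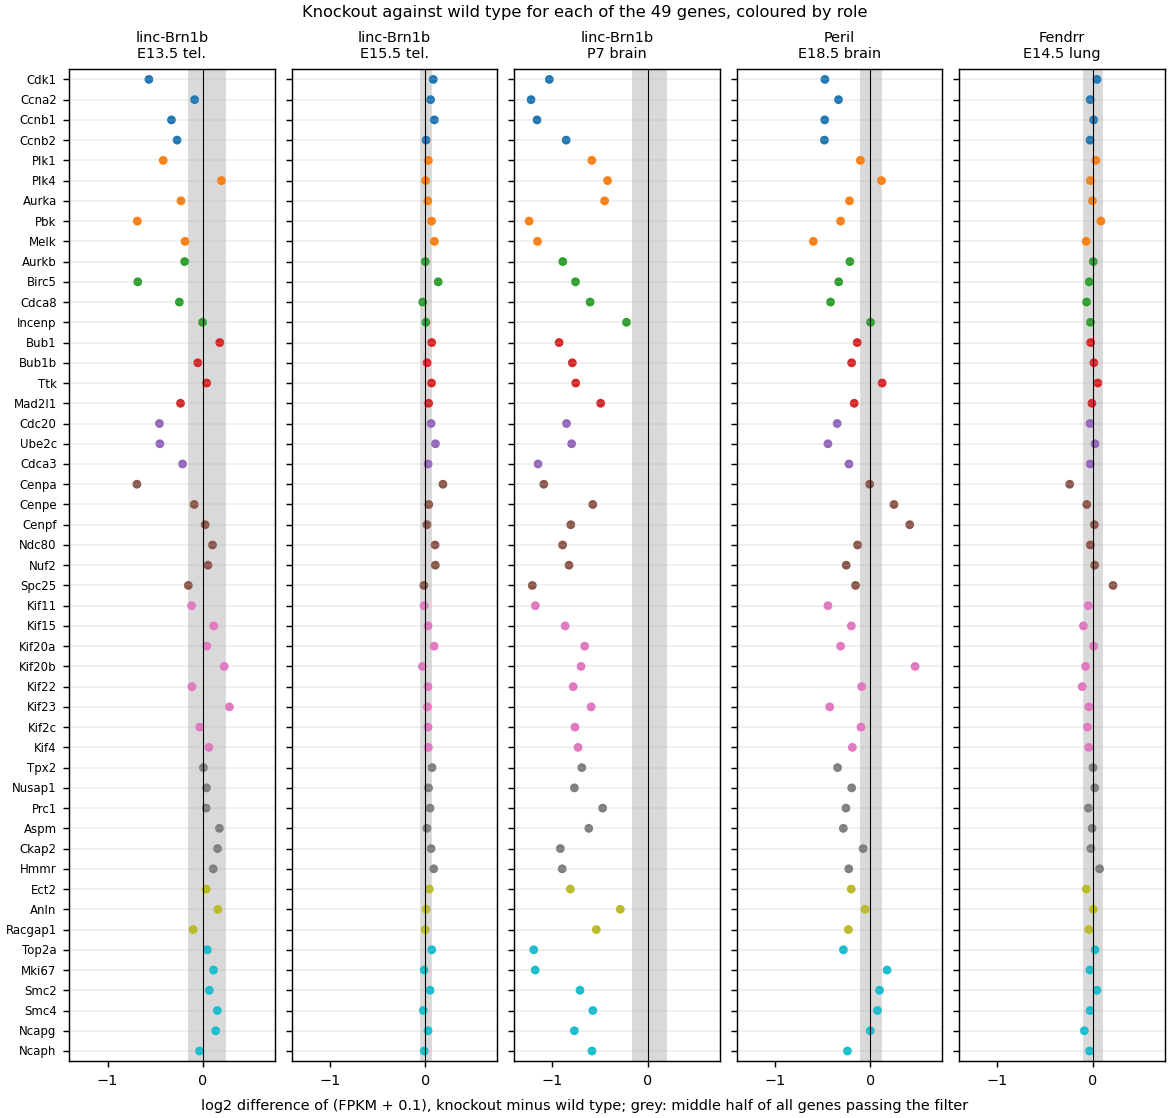
log2 difference of (FPKM + 0.1), knockout minus wild type, for each of the 49 genes in the 5 genotype comparisons, coloured by role, with the middle 50% of all genes that pass the filter in grey. At P7 every point lies left of 0 (median -0.79), in the Peril strain most do (median -0.20), and at E15.5 and in the Fendrr lung none of the points is past the fold. Aspm at P7 is drawn although it did not pass the filter.

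Other gene lists at P7 give the setting. Of 52 other mitosis genes that passed, 48 were lower and 36 past the fold, with a median of -0.53. The lowest were Hjurp, the chaperone of CENP-A, at 9.67 FPKM in wild type against 3.64 FPKM in knockout, and Esco2, a cohesin acetyltransferase, at 1.74 and 0.692 FPKM. Of 42 S-phase genes, 38 were lower and 28 past the fold, with a median of -0.53, led by Chaf1b, a chromatin assembly factor, at 3.40 and 1.38 FPKM and Rrm2, the ribonucleotide reductase subunit, at 11.7 and 5.17 FPKM. The 23 subunits of the anaphase-promoting complex and cohesin had a median of -0.06 and 2 were lower past the fold. Of 17 genes for cell cycle gene repressors and MuvB subunits, 8 were lower and 4 past the fold, with a median of 0.01.

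Markers of other cells moved with these genes at P7. The list for cerebellar granule cells and their precursors holds 8 genes. Of these, 5 passed and 5 of those were lower past the fold, with a median of -1.28. Zic1 measured 38.8 FPKM in wild type against 15.96 FPKM in knockout, and Barhl1, a factor of the rhombic lip lineage, 4.25 and 0.939 FPKM. Atoh1, which defines granule cell precursors, measured 0.507 and 0.0148 FPKM, Pax2, a marker of cerebellar interneurons rather than granule cells, 1.70 and 0.0295 FPKM, and Gabra6, a marker of mature granule cells, 0.519 and 0.0324 FPKM. Atoh1, Pax2 and Gabra6 did not reach a mean of 1 FPKM and so did not pass the filter. The summed level of the 8 was 107 FPKM in wild type against 52.2 FPKM in knockout. The radial glia list summed to 1196 and 728 FPKM, with 6 of 9 lower past the fold, led by Pax6 at 15.3 and 5.43 FPKM and Fabp7 at 919 and 508 FPKM. Fabp7 made up most of both sums. Hes5, at 10.9 and 12.8 FPKM, and Hes1, at 4.69 and 5.03 FPKM, stood the other way. The oligodendrocyte list summed to 553 and 374 FPKM, in which Mbp was lower and Olig2 higher in the knockout. The 9 markers of postmitotic neurons summed to 3730 and 3590 FPKM. Zic1, Zic2, Meis1, Pax6 and Fabp7 are also expressed outside the cerebellum. The part of the cerebellum and of these cell types in the P7 difference was not tested.

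**Figure D4:**
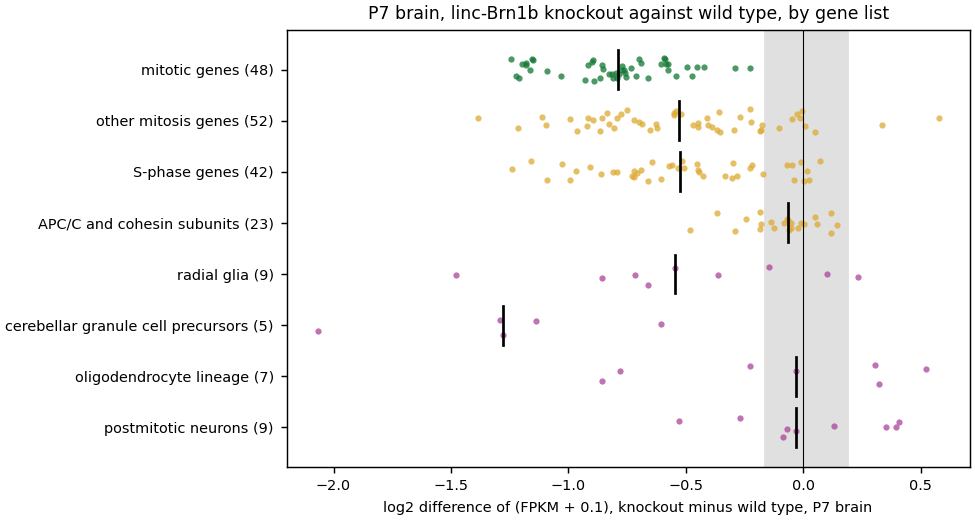
log2 difference of (FPKM + 0.1), knockout minus wild type, in P7 brain for the mitotic genes, 3 other cell cycle lists and 4 lists of cell type markers, 1 point per gene that passed the filter (number in brackets), with the median as a black bar and the middle 50% of all genes in grey. The cerebellar granule cell list has the lowest median (-1.28), followed by the mitotic genes (-0.79) and the radial glia (-0.55), while the anaphase-promoting complex and cohesin list (-0.06) and the neurons (-0.03) lie near 0.

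At E15.5 the genotypes of the linc-Brn1b strain were close. Of the 49 genes, 40 were higher and 9 lower in the knockout, where 53.5% of all genes were higher. None was past the fold in either direction, where 1.33% of all genes were lower and 1.08% higher, and the median was 0.03 against 0.01 for all genes. The differences lay between -0.03 for Kif20b and 0.18 for Cenpa. Cdca8 and Smc4 followed Kif20b at -0.03 and -0.02, and Birc5 and Ube2c followed Cenpa at 0.13 and 0.10. Cenpa measured 11.4 and 12.9 FPKM, and the row Cenp-a on its locus 13.03 and 13.8 FPKM. Top2a measured 88.5 FPKM in wild type against 92.6 FPKM in knockout, Cdk1 20.7 and 21.9 FPKM, and Mki67 48.02 and 47.5 FPKM.

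At E13.5 the genes split. Of the 49, 25 were lower and 24 higher in the knockout, where 41.1% of all genes were lower. Past the fold, 8 were lower, where 14.3% of all genes were, and none was higher, where 14.7% of all genes were. The count of 8 lower genes is thus near the share of all genes. The median was -0.00 against 0.06 for all genes. The 8 were Cenpa, Pbk, Birc5, Cdk1, Cdc20, Ube2c, Plk1 and Ccnb1. Cenpa measured 20.7 FPKM in wild type against 12.8 FPKM in knockout, and the row Cenp-a on its locus 28.9 and 17.5 FPKM. Pbk measured 61.9 and 38.4 FPKM, Birc5 63.4 and 39.5 FPKM, and Cdk1 38.9 and 26.2 FPKM. Ube2c measured 122 and 89.0 FPKM, and Cdc20 75.1 and 54.7 FPKM. Among those that were higher, Kif23 measured 32.3 and 39.1 FPKM, Kif20b 14.6 and 17.0 FPKM and Plk4 18.8 and 21.6 FPKM.

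The E13.5 differences followed transcript length. Over the 49 genes, the Spearman correlation of the difference with the length of the longest annotated coding transcript was 0.66, and over 11830 genes with a length it was 0.49. With all genes in 10 groups by length, the group medians went from -0.51 for the shortest to 0.18 for the longest. The 12 mitotic genes with the shortest transcripts, from 1354 to 2191 nt, were lower in the knockout in 12 of 12 cases, with a median of -0.24. The 12 with the longest, from 4365 to 11137 nt, were higher in 10 of 12, with a median of 0.06. With differences centred within these 10 groups, an alternative added after the data were seen, 39 of 49 genes were lower, 7 of them past the fold, and the median was -0.08. Centring on the group medians places about as many of all genes below as above by construction. The share of all genes past the fold after centring is not given, so the count of 7 cannot be set against it. The other genotype comparisons had correlations of 0.32 over the mitotic genes and 0.21 over all genes in the Peril strain, 0.18 and 0.16 at P7, -0.18 and -0.21 at E15.5, and -0.08 and -0.23 in the lung. These correlations are across genes of the same libraries and carry no test.

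**Figure D5:**
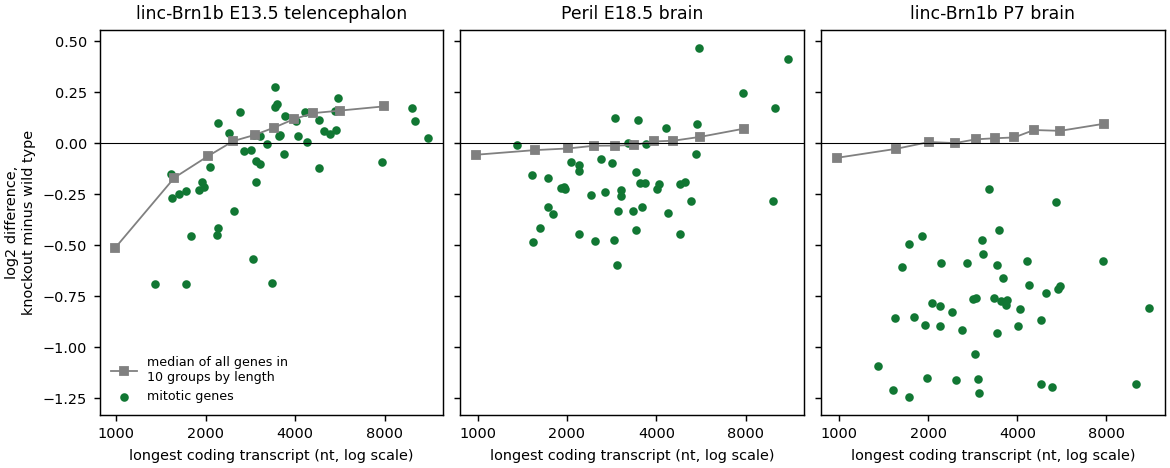
log2 difference, knockout minus wild type, against the length of the longest coding transcript (nt, log scale) for the mitotic genes (green) and the medians of all genes in 10 groups by length (grey squares). At E13.5 both go up with length (Spearman correlation 0.66 for the mitotic genes and 0.49 for all genes), while at P7 the green points lie below the grey line at every length.

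At E13.5 several other lists were mostly lower in the knockout, but not that of intermediate progenitors. Of its markers, Eomes measured 57.2 FPKM in wild type against 78.7 FPKM in knockout and Neurod4 2.21 and 3.66 FPKM. Btg2 was higher by less, at 29.5 and 32.1 FPKM, and Neurog1 was lower, at 6.47 and 6.07 FPKM. Insm1, at 25.2 and 25.5 FPKM, and Neurog2, at 64.8 and 63.5 FPKM, barely differed. The S-phase genes were lower in 40 of 45 cases, with a median of -0.21, led by Rrm2 at 130 FPKM in wild type against 73.3 FPKM in knockout. The other mitosis genes had a median of -0.08, with Pttg1, securin, at 10.7 and 5.36 FPKM and the CDK subunit Cks1b at 85.7 and 43.6 FPKM. The macrophage and microglia markers were lower in 8 of 8 cases, summing to 31.1 and 18.1 FPKM, the endothelial markers in 7 of 7, summing to 64.4 and 44.1 FPKM, and the erythroid list summed to 126 and 47.8 FPKM. Most of the erythroid sum was the globin Hbb-b1 at 106 and 34.8 FPKM, and of the 4 genes of that list that passed the filter 3 were lower and Alas2, an enzyme of heme synthesis, stood the other way at 5.64 and 6.41 FPKM. The part of transcript length and of these cells in the E13.5 differences was not tested.

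In E18.5 brain of the Peril strain, 40 of 49 genes were lower in the libraries labelled knockout, where 49.2% of all genes were lower. Past the fold, 12 were lower, where 5.24% of all genes were, and 2 were higher, where 7.01% of all genes were. The median was -0.20 against 0.00 for all genes. The only entry of the table on the Peril locus, linc-Atp11b-4, measured 0.0109 FPKM in wild type against 4.65 FPKM in the libraries labelled knockout. This entry reaches beyond the deleted part and so does not check the deletion, and every direction for this strain follows the label. The order of the 2 values in the Peril table was taken from that of the linc-Brn1b table and was not checked within the Peril table itself.

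CDK1 and its cyclins were lower past the fold in 4 of 4 cases in this brain. Cdk1 measured 7.02 FPKM in wild type against 5.01 FPKM in the libraries labelled knockout, Ccna2 11.8 and 9.36 FPKM, Ccnb1 11.02 and 7.88 FPKM, and Ccnb2 6.94 and 4.94 FPKM. Melk had the lowest difference at -0.60, with 2.83 and 1.84 FPKM. Also lower past the fold were Birc5, Cdca8, Cdc20, Ube2c, Kif11, Kif23 and Tpx2. Cenpa measured 3.17 and 3.15 FPKM, but the row Cenp-a on its locus measured 4.14 and 2.62 FPKM, so the value of Cenpa is uncertain here. Kif20b, at 1.42 and 2.00 FPKM, and Cenpf, at 1.70 and 2.29 FPKM, were higher past the fold, and Cenpe, the kinesin of the kinetochore, was next at 1.72 and 2.06 FPKM. These 3 had the lowest levels of the 49 in wild-type brain and have transcripts of 5563, 11137 and 7813 nt. The chromosome structure genes were lower in 3 of 6 cases, with Top2a at 18.54 and 15.2 FPKM and Mki67 at 7.18 and 8.11 FPKM.

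Beside these values, S-phase genes were lower in 32 of 42 cases in the Peril strain, with a median of -0.14, led by Mcm6 of the replicative helicase at 20.3 FPKM in wild type against 11.1 FPKM in the libraries labelled knockout. The other mitosis genes were lower in 40 of 63 cases, with a median of -0.09, with 4 lower and 5 higher past the fold. The macrophage and microglia markers were lower in 8 of 8 cases, summing to 81.2 and 64.2 FPKM, the endothelial markers in 7 of 7, summing to 89.3 and 74.6 FPKM, and the erythroid list summed to 94.0 and 56.5 FPKM, of which Hbb-b1 made up 89.2 and 52.8 FPKM. The neuronal markers summed to 3634 and 3762 FPKM. The part of these cells in the difference was not tested.

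In E14.5 lung of the Fendrr strain, none of the 49 genes was past the fold, where 6.22% of all genes were lower and 5.38% higher. Of the 49, 31 were lower, where 48.6% of all genes were, with a median of -0.03 against 0.00 for all genes. Cenpa was lowest at 29.9 FPKM in wild type against 25.2 FPKM in knockout, and the row Cenp-a on its locus stood the other way at 48.6 and 51.5 FPKM. It was followed by the kinesins Kif22 at 59.2 and 54.7 FPKM and Kif15 at 34.5 and 32.2 FPKM. Spc25 was highest at 60.0 and 69.5 FPKM, followed by Pbk at 50.8 and 53.8 FPKM and Hmmr at 33.4 and 35.02 FPKM. Cdk1 measured 80.8 and 83.2 FPKM, Top2a 200.3 and 203 FPKM, and Mki67 114 and 112 FPKM. The summed level of the 49 genes was 2955 and 2929 FPKM. In the same libraries 10 of 10 markers of cardiac muscle were higher past the fold in the knockout, summing to 389 and 1177 FPKM, and the erythroid list summed to 1183 and 659 FPKM, of which Hbb-b1 made up 1124 and 623 FPKM, while the mitotic sum stayed at 99.1% of wild type.

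The differences of genes with and without a CHR in the promoter window overlapped in range in every comparison, and no test of the sets was made. Only TTTGAA and TTCGAA were searched, so a gene counted as without a CHR may hold another form of the element. In P7 brain the 33 genes with a CHR had a median of -0.80, from -1.21 to -0.29, and the 9 without had -0.76, from -1.16 to -0.42. The 33 include Aspm, which did not pass the filter at P7. Among the genes without a CHR, no coding transcript of the gene holds the 30 bases from the annotated start of Plk4, Birc5 and Mad2l1. Among those with one, the same is true of Plk1, Aurka, Spc25, Kif11, Aspm and Smc2. For these genes the window may not cover the promoter in use. From E13.5 to E15.5 in wild type the medians were -1.03 and -1.05, and in the Peril strain -0.20 and -0.24. They were -0.03 and -0.03 in the lung, 0.03 and 0.03 between genotypes at E15.5, and -0.96 and -0.94 from E13.5 to E15.5 in the knockout. They lay farther apart between genotypes at E13.5, at 0.03 with and -0.09 without a CHR, and from E15.5 to P7, at -2.55 and -2.34 in wild type and -3.35 and -3.07 in the knockout. Ccnb1, whose window held no CHR of the letters searched, and Cdk1, whose window held 2, differed by -1.16 and -1.03 at P7.

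Y-linked genes differed between the genotypes in all 5 comparisons. Eif2s3y measured 16.5 FPKM in wild type against 0.00723 FPKM in the knockout at E13.5, but 0.00554 and 9.94 FPKM at E15.5. Uty, Kdm5d, Eif2s3y and Ddx3y were all on the wild-type side in the E13.5 telencephalon and the lung and on the knockout side in E15.5 telencephalon, P7 brain and the Peril brain. In both genotypes the step from E13.5 to E15.5 also crosses between groups with and without Y-linked transcripts. The linc-Brn1b transcript itself measured 1.60 FPKM in wild type at E13.5, 2.498 FPKM at E15.5 and 0.799 FPKM at P7 and is listed at 0 in the 3 knockout groups. The Fendrr locus entry linc-Cox4nb-4 measured 38.4 FPKM in wild-type lung and 0.0450 FPKM in knockout.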

How the data were processed

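RNA was sequenced from 21 libraries in 10 groups. With TopHat2 the authors aligned the reads to mm9, and with Cufflinks 2.0.2 they assembled transcripts and estimated expression (Cuffdiff2; from the submitters' processing notes and the study's methods). The authors deposited FPKM as 1 value per group in 3 tables, normalized separately, with 0 columns of values per library. The depth and the spread between libraries are therefore unknown. The authors' fold changes, test statistics, p-values and q-values in these tables were not used. In the linc-Brn1b table, value_2 was read as the group named first in a comparison, the only reading that gives each group the same value in all its comparisons, and the same order was taken in the other 2 tables.

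From the FPKM, log2 differences with a pseudocount of 0.1 were computed in Python 3.11.15 (pandas 2.3.3, scipy 1.17.1) for genes with a mean of at least 1 FPKM, and counted where the values differed by at least 25% of the lower. The computation was tested on simulated data. All 49 genes are named, and in each comparison the 3 highest and 3 lowest are named, with up to 2 extreme genes of each other list. Further genes of the lists, such as Atoh1, Pax2, Gabra6, Olig2 and Mbp, were named after their values were seen. Members and lists were chosen with earlier results of these data known. Transcript lengths are those of GENCODE on NCBIM37. Promoters are from RefSeq on GRCm38.p6, a build other than that of the tables, and were matched by symbol only. A planned search for the KEN motif in proteins was not run, since protein sequences were not used here. One promoter sequence is not reported here.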

Additional observations from a re-analysis of the deposited data

How the results depend on the processing

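No paired analysis was possible because the tables hold 1 value per group, and for the same reason leaving out each library in turn was not run. With a fold of 1.5, 1 gene was lower and 0 higher in the Peril strain and 3 were lower at E13.5 between genotypes. With a fold of 2, 0 were lower and 0 higher in the Peril strain, 0 were lower at E13.5, 11 were lower at P7, 28 in wild type and 20 in the knockout from E13.5 to E15.5. With a pseudocount of 1, 0 genes were higher in the Peril strain and the medians were -0.57 at P7 between genotypes, -2.16 for wild type and -2.81 for the knockout from E15.5 to P7. A minimum of 5 FPKM left 0 higher past the fold in the Peril strain and 12 lower past the fold at P7, and by any amount 20 of 24 lower in the Peril strain and 13 of 13 at P7, since it left fewer genes to count. Centring on all genes gave medians of -2.34 for wild type and -3.24 for the knockout from E15.5 to P7, and centring within 10 groups by transcript length, added after the data were seen, gave -2.34 for wild type and 39 genes lower by any amount at E13.5 between genotypes. No median or count changed direction under these alternatives, and the other 231 values stayed close, within 0.1 for medians and 1.5-fold for counts. Depth is unknown, so the precision of low values such as those at P7 cannot be given.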
